A study of Mus musculus with 18 samples.

Results

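The 10 genes described here mark the cells that line the blood spaces of the spleen. They are Pecam1, Cdh5, Kdr, Tek, Eng, Emcn, Plvap, Gpihbp1, Stab2 and Madcam1. They were taken by gene symbol from a table of 19320 genes, and 10 of 10 were found. RNA was measured in whole spleens of ICR mice at 10 weeks of age, in 18 libraries that form 6 groups of 3. Con mice were untreated apart from saline and ate a regular diet. A10 mice were given 10 mg/kg of alginate oligosaccharide (AOS), which is cut from a polysaccharide of brown seaweed. STZ mice were given streptozotocin, a toxin of the insulin-producing beta cells that is used to model type 1 diabetes, and STZ-A10 mice were given STZ and AOS at 10 mg/kg. A10-FMT and Con-FMT mice were given STZ followed by a transplant of gut microbiota (FMT), whose donors had received AOS at 10 mg/kg for A10-FMT and were control mice for Con-FMT. The transplanted gut content was pooled over donors, so the FMT mice of a group share 1 donor pool. The 4 groups other than Con and A10 all carry STZ.

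Endothelial cells form the inner wall of vessels and seal it with junction proteins, of which PECAM1 and VE-cadherin (Cdh5) are the best known. Their growth and rest are set by surface receptors that read ligands from neighbouring cells, such as the VEGF receptor KDR, the angiopoietin receptor TEK and the BMP and TGF-beta co-receptor endoglin (Eng). The spleen has an open circulation in which blood leaks from arterial ends into the red pulp and re-enters through slits in venous sinuses. Sinus walls carry scavenger receptors such as stabilin 2, and the lining cells of the marginal sinus around the white pulp carry the lymphocyte addressin MAdCAM-1.

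The region just before the start of 3 of the genes is shown, chosen by their results. Madcam1 and Eng had the largest differences relative to their error, in opposite directions, of STZ and STZ-A10 from Con and A10. Kdr followed the other members most closely from library to library. Each line gives the 250 bases before the RefSeq start in GRCm38.p6, written 5′ to 3′ on the strand of the gene. RefSeq promoters were matched for 6 of the 10 genes. Capitals mark the matches to the motifs searched.

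Madcam1, chr10:79664309-79664558, plus strand: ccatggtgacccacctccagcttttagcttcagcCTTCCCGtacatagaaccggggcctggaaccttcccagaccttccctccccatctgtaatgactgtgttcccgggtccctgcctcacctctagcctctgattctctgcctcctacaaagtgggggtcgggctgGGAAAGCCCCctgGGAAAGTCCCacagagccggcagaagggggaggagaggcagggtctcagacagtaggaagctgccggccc

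Eng, chr2:32646345-32646594, plus strand: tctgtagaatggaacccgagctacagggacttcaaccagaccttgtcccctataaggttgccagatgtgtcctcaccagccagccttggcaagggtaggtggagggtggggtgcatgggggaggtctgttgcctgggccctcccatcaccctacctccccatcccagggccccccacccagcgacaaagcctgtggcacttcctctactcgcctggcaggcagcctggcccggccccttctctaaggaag

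Kdr, chr5:75978456-75978705, minus strand: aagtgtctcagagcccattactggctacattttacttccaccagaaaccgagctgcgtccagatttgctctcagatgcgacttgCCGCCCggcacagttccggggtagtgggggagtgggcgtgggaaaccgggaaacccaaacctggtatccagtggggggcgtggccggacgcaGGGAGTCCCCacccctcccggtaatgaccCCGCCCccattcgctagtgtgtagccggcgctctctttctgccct

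Both strands were searched for the ETS core CNGGAAG, for the letters AGATAA that GATA factors bind and for the letters CACTTNA of NKX2 factors. They were also searched for the TATA box TATAAA, for the GC box GGGCGG and for the NF-kB motif. Positions are counted back from the base before the start, which is -1. The Madcam1 region held an ETS match at -216 to -210 and a pair of NF-kB matches at -83 to -74 and -70 to -61. The Kdr region held GC boxes at -166 to -161 and -45 to -40 and an NF-kB match at -74 to -65, which was read on both strands from the same bases. The Eng region held none of these letters. Over 32851 RefSeq promoters of this length, the ETS core was in 26.6%, the GC box in 32.7%, the TATA box in 12.4%, the NKX2 letters in 10.1%, the GATA letters in 9.99% and the NF-kB motif in 7.25%. These matches are letters in a window and were not tested as binding sites.

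All 10 genes are protein coding in GENCODE M21 (GRCm38). Madcam1 lies on the plus strand at chr10:79664559-79668537, Eng on the plus strand at chr2:32646595-32682669 and Kdr on the minus strand at chr5:75932827-75978458. Plvap lies on the minus strand at chr8:71497765-71511752, Cdh5 on the plus strand at chr8:104101625-104144511 and Stab2 on the minus strand at chr10:86841198-87008025. Pecam1 lies on the minus strand at chr11:106654217-106750628, Tek on the plus strand at chr4:94739289-94874976, Emcn on the plus strand at chr3:137341067-137432185 and Gpihbp1 on the plus strand at chr15:75596628-75599481. Eng overlaps Fpgs and Plvap overlaps Gtpbp3, both on the opposite strand, and Cdh5 and Stab2 overlap transcripts on the opposite strand. The counting is not stated to use strand, so reads from these pairs cannot be told apart in the overlap.

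Values are RPKM, read numbers divided by gene length and by each library's mapped reads, which allow levels to be compared between genes. The read depth is unknown, so no counting interval is given. Summed RPKM ran from 673221 to 884539 and genes at an RPKM of 1 or more from 11532 to 12893. The 10 globin genes made up 10.4% to 42.7% of each library's summed RPKM, most in A10-FMT replicate 3. That library stood apart. It was the lowest of the 18 libraries for 49.3% of all genes tested and for 8 of the 10 endothelial genes, and the A10-FMT comparisons, the correlations between the genes and the relation to the globin share are also given without it. The spleen label was checked on lists of lymphocyte and red pulp macrophage markers, of which no gene was at 0 in a whole group.

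The endothelial genes covered a wide range of levels, and all 10 passed the filter on low values. Plvap, the protein of the diaphragms that span endothelial fenestrae, was the highest with a mean of 81.5 RPKM over the 18 libraries (range 45.08 to 145.40). Pecam1 followed at 47.0 RPKM and Eng at 34.8 RPKM. Gpihbp1, which holds lipoprotein lipase on the capillary wall, averaged 17.7 RPKM, Madcam1 15.6 RPKM and Stab2, a scavenger receptor for hyaluronan, 11.5 RPKM. Cdh5 averaged 8.09 RPKM, Kdr 7.11 RPKM and Tek 3.37 RPKM. Emcn, a sialomucin of veins and capillaries, was the lowest at 1.75 RPKM with a minimum of 0.96 RPKM in Con replicate 1. Among the 12905 genes tested, Plvap stood at percentile 92.6 of the mean level and Emcn at percentile 10.7. Madcam1 varied most, with its highest library 10.6 times its lowest, and Eng varied least, at 1.74 times.

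**Figure D1:**
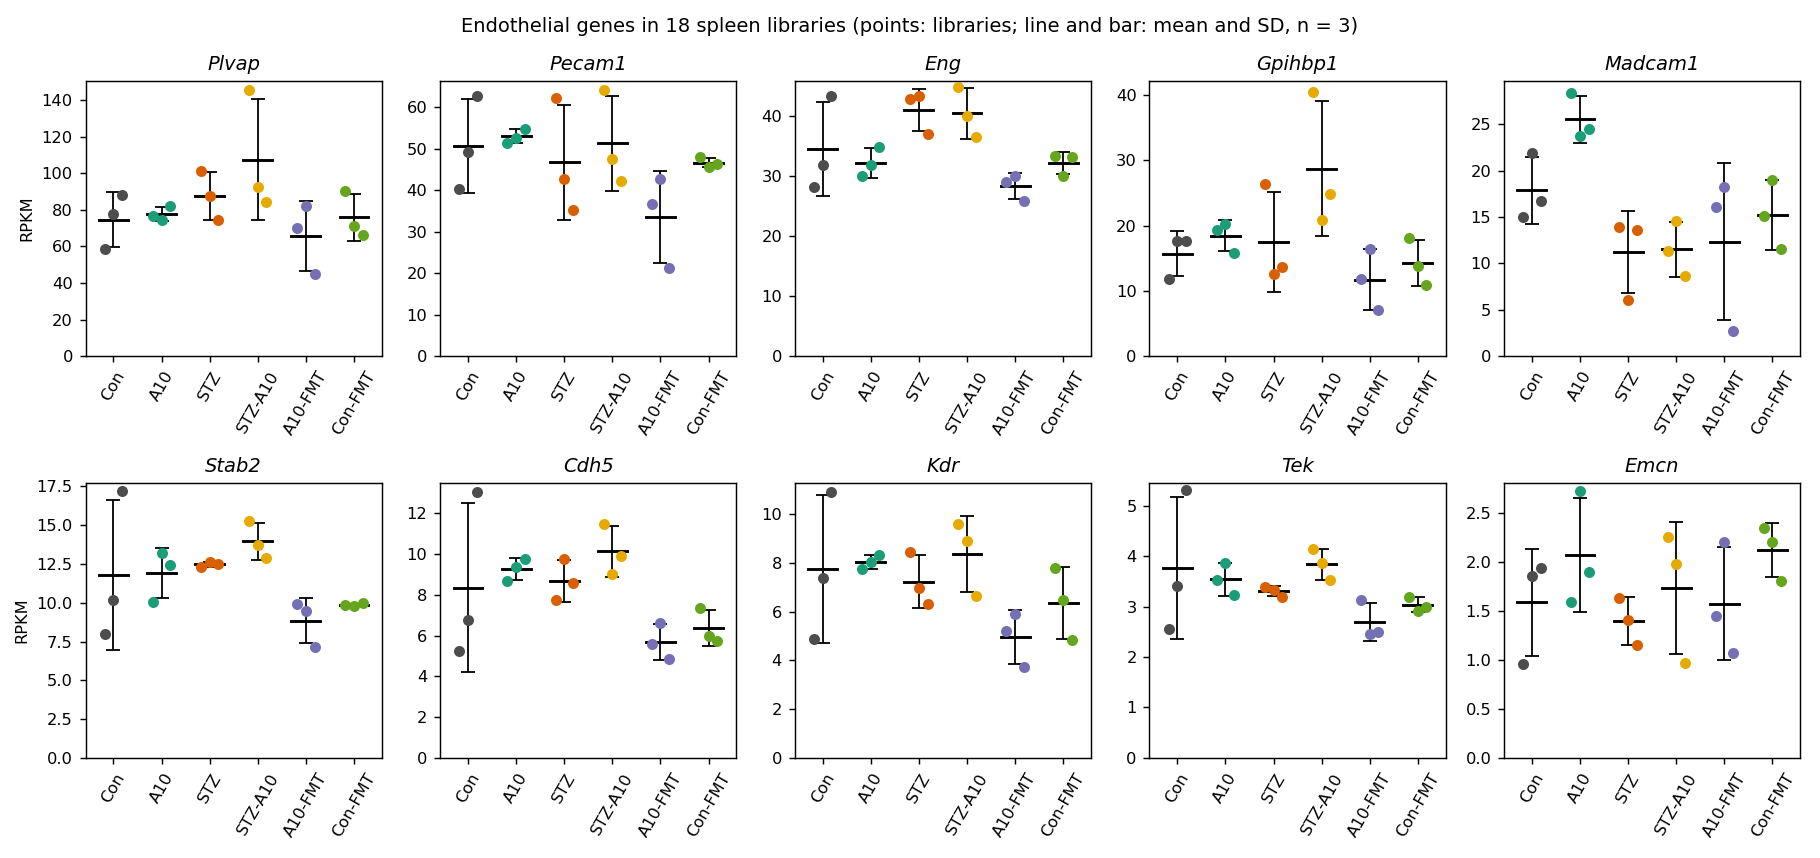
RPKM (y axis, from 0) of each of the 10 endothelial genes in the 6 groups (x axis). Points are libraries, the line is the group mean and the bar is the SD (n = 3). A10-FMT had the lowest mean for 8 of the genes (7 without A10-FMT replicate 3), and 72.3% of all genes were lower in A10-FMT than in STZ. Madcam1 was lower in all 6 STZ and STZ-A10 libraries than in all 6 Con and A10 libraries. In each FMT group, which also carries STZ, Madcam1 overlapped Con.

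The order of the group means was similar for most of the genes. STZ-A10 had the highest mean of Plvap, Gpihbp1, Stab2, Cdh5, Kdr and Tek, and A10-FMT had the lowest mean of all genes but Madcam1 and Emcn. It was the lowest for 7 of the 10 genes without A10-FMT replicate 3, since Plvap then averaged 76.1 RPKM, above 74.6 RPKM in Con and 75.9 RPKM in Con-FMT. Low values in A10-FMT were general, with 72.3% of all genes below STZ and 71% below Con-FMT. STZ-A10 replicate 1 was the highest library for 18.4% of all genes tested. The share of all genes with the same order was not computed, so the order is not read as particular to the 10 genes. Most neighbours in these orders differed by less than the larger of their SDs. The exceptions were Pecam1 between Con-FMT and A10-FMT, Tek between STZ and Con-FMT, Eng between A10 and A10-FMT, Stab2 between STZ-A10 and STZ, and Madcam1 between A10 and Con. Con was the most variable group for Cdh5, Kdr, Tek and Stab2, since Con replicate 3 held the highest of all 18 values for each. Cdh5 was 5.26, 6.76 and 13.06 RPKM in the 3 Con libraries, whereas the A10 libraries lay between 8.70 and 9.77 RPKM.

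The effect of STZ was asked in mice without AOS (STZ against Con), in mice given AOS (STZ-A10 against A10) and over both pairs together (6 libraries against 6). None of the 10 genes passed the adjusted threshold of 0.05 in limma in these comparisons. Over all genes tested, 0.163% passed for STZ against Con, 0.0542% for STZ-A10 against A10 and 3.3% for both pairs together. At an unadjusted p under 0.05 there were 0, 2 and 2 of the 10 genes, against 11.1%, 10.2% and 18.2% of all genes. The 10 genes had a median log2 fold change of 0.03 for STZ against Con, 0.10 for STZ-A10 against A10 and 0.06 for both pairs. The median of all genes was -0.01, -0.03 and -0.02. Above 0 were 5, 7 and 6 of the 10 genes, against 47.6%, 42.5% and 44.8% of all genes. With a library left out, the median for STZ against Con ran from -0.20 (without Con replicate 1) to 0.20 (without Con replicate 3), and that for STZ-A10 against A10 from 0.04 (without STZ-A10 replicate 1) to 0.16 (without STZ-A10 replicate 3). Without Con replicate 3 the median of the 10 genes over both pairs was 0.21, with 7 above 0, and without Con replicate 1 it was -0.05, with 4 above 0.

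Madcam1 was the member with the lowest levels in STZ mice relative to its controls. It encodes the addressin that captures lymphocytes carrying the integrin of Itga4 and Itgb7. Its levels were 15.01, 21.92 and 16.74 RPKM in Con and 28.37, 23.73 and 24.44 RPKM in A10. They were 13.88, 6.08 and 13.58 RPKM in STZ and 11.29, 14.52 and 8.68 RPKM in STZ-A10. Each STZ and STZ-A10 library was below each Con and A10 library, a separation of 6 from 6 that 1.72% of all genes showed in that direction. The FMT libraries, which also carry STZ, were outside this comparison. Madcam1 was 16.11, 18.28 and 2.68 RPKM in A10-FMT and 15.14, 19.04 and 11.52 RPKM in Con-FMT, and each FMT group overlapped Con. The mean of Madcam1 was 11.3 ± 3.36 RPKM (SD, n = 6) in STZ and STZ-A10 and 21.7 ± 5.01 RPKM (SD, n = 6) in Con and A10. Its log2 fold change was -0.90 (SE 0.33, 95% interval -1.60 to -0.20), with an unadjusted p of 0.0155 and an adjusted p of 0.154 in limma. The adjusted p was 0.0123 without A10-FMT replicate 3, a library outside this comparison that adds to the shared estimate of the spread, and 0.0293 when only the groups compared were fitted. It was as high as 0.367 without STZ replicate 2, where the log2 fold change was -0.72. In the single pairs the log2 fold change was -0.69 for STZ against Con (95% interval -1.69 to 0.30) and -1.11 for STZ-A10 against A10 (SE 0.47, unadjusted p 0.0315, adjusted p 0.418 in limma). The libraries did not overlap in either pair. In that direction 7.07% and 14.9% of all genes did not overlap in these pairs.

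The lymphocyte markers lay below 0 with Madcam1, and their part in its result was not tested. Of 11 lymphocyte markers, 11 had a log2 fold change below 0 over both pairs and 0 passed the threshold, with a median of -0.39. Their summed RPKM ran from 1381 to 2424 in Con and A10 and from 1262 to 2309 in STZ and STZ-A10. In a bulk sample, fewer cells of a type and less RNA per cell cannot be told apart. The genes of the integrin that binds MAdCAM-1 were named after their values were seen. The log2 difference of Itgb7 was -0.49 (SE 0.20) and that of Itga4 0.18 (SE 0.11), with adjusted p-values of 0.202 and 0.434 in limma. Neither passed the threshold.

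Over both STZ pairs, Eng was the member with the smallest unadjusted p in the direction of higher levels. Its levels were 28.24, 31.93 and 43.35 RPKM in Con and 29.96, 31.83 and 34.95 RPKM in A10. They were 42.84, 43.34 and 36.99 RPKM in STZ and 44.92, 40.00 and 36.52 RPKM in STZ-A10. All 6 STZ and STZ-A10 libraries were above 5 of the 6 libraries without STZ, and Con replicate 3 lay inside their range. The FMT libraries, which also carry STZ, were outside this comparison. Eng was 25.87 to 30.09 RPKM in A10-FMT and 30.12 to 33.41 RPKM in Con-FMT. Each FMT library was below each STZ and STZ-A10 library, and each FMT group overlapped Con. The mean of Eng was 40.8 ± 3.49 RPKM (SD, n = 6) in STZ and STZ-A10. It was 33.4 ± 5.38 RPKM (SD, n = 6) in Con and A10. The log2 difference was 0.29 (SE 0.10, unadjusted p 0.0082, adjusted p 0.11 in limma). The adjusted p was 0.0231 without Con replicate 3, 0.0331 with each library centred on its median and 0.042 after quantile normalization. It was as high as 0.258 without STZ replicate 2, and the log2 difference was 0.23 without Con replicate 1. For STZ-A10 against A10 the log2 fold change was 0.32 (SE 0.14, unadjusted p 0.033, adjusted p 0.428 in limma).

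Endoglin is also known on macrophages and early erythroid cells, and markers of red pulp macrophages were higher in the same libraries. All 12 macrophage markers had a log2 fold change above 0 over both STZ pairs, as did 44.8% of all genes. The threshold was passed by 3 of them (Vcam1, Cd163 and Mertk), beside 3.3% of all genes. The 12 markers summed to 745.5 to 988.0 RPKM in Con and A10 and 953.8 to 1493 RPKM in STZ and STZ-A10. Of 13 erythroid markers, 9 had a log2 fold change above 0 (median 0.06) and 1 (Car1) passed the threshold. The part of these cells in the Eng result was not tested.

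The remaining members showed smaller or more variable differences with STZ. Plvap and Gpihbp1 were higher in STZ-A10 than in A10 with no overlap of libraries, as were 7.69% of all genes. Plvap was 76.68, 74.51 and 81.97 RPKM in A10 and 145.40, 92.66 and 84.38 RPKM in STZ-A10. Gpihbp1 was 19.26, 20.27 and 15.76 RPKM in A10 and 40.49, 20.81 and 24.90 RPKM in STZ-A10. For both genes the gap between the groups was narrow and STZ-A10 replicate 1 was far above the rest. Over both pairs, the log2 fold change was 0.33 for Plvap (95% interval -0.01 to 0.68) and 0.33 for Gpihbp1 (95% interval -0.15 to 0.81). For Kdr the interval was -0.34 to 0.34, for Tek -0.24 to 0.23, for Pecam1 -0.46 to 0.26, for Cdh5 -0.20 to 0.45, for Stab2 -0.11 to 0.47 and for Emcn -0.46 to 0.19. Pecam1 is also known on platelets. Over both STZ pairs, 7 of 12 platelet markers were lower past the threshold, which 3.3% of all genes passed in either direction. The 12 markers summed to 756.3 to 2124 RPKM in Con and A10 and 260.5 to 770.5 RPKM in STZ and STZ-A10. In the FMT groups, which also carry STZ, they summed to 573.4 to 773.4 RPKM (A10-FMT) and 633.4 to 901.0 RPKM (Con-FMT). Exocrine pancreas markers have no place in the spleen. They summed to 22.5 to 1592 RPKM in Con and A10 and 1011 to 7775 RPKM in STZ and STZ-A10. In the FMT groups they summed to 148.9 to 17665 RPKM (A10-FMT) and 1513 to 2491 RPKM (Con-FMT). Over both STZ pairs, 2 of 11 were higher past the threshold. The part of these cells in the endothelial values was not tested.

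**Figure D2:**
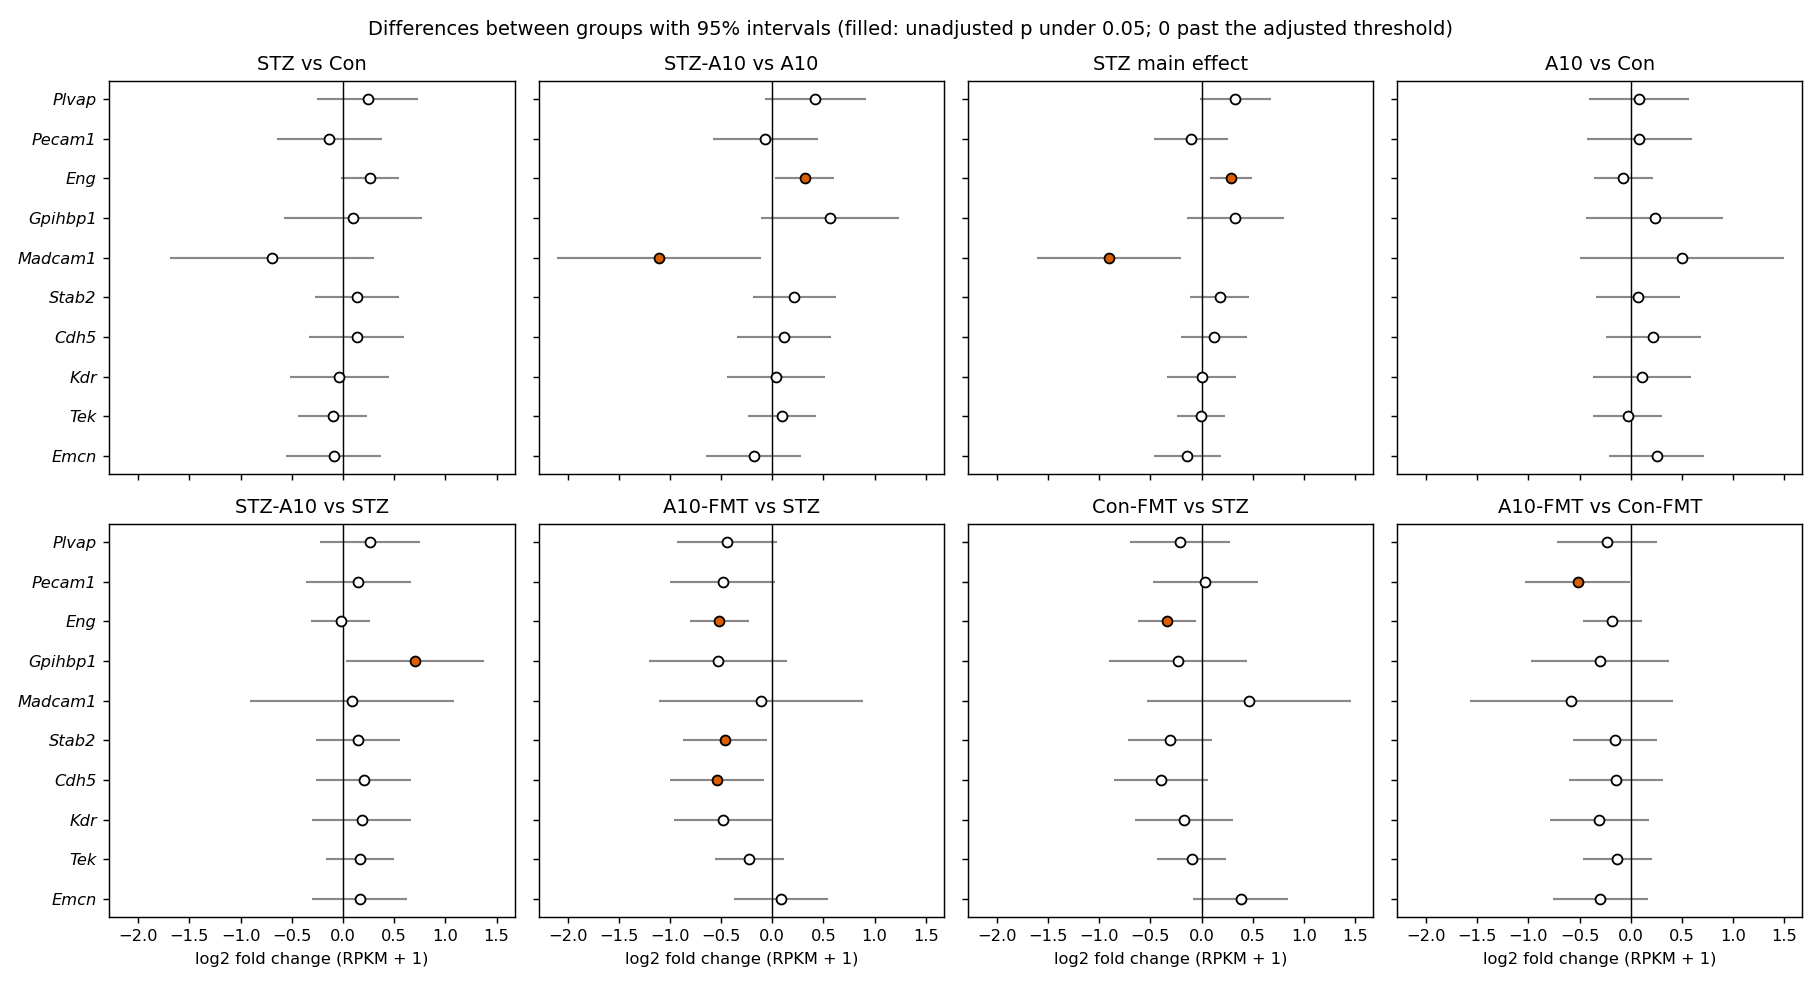
Log2 fold change of RPKM + 1 (x axis) of the 10 endothelial genes (y axis) in 8 comparisons, with 95% intervals from limma. Filled points have an unadjusted p under 0.05 and 0 genes passed the adjusted threshold. Eng lies above 0 and Madcam1 below 0 in the 3 STZ panels, and 9 of 10 points lie below 0 for A10-FMT against STZ.

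The effect of AOS was asked in mice without STZ (A10 against Con) and with STZ (STZ-A10 against STZ). None of the 10 genes passed the adjusted threshold in limma, which 0.00775% of all genes passed in each comparison. At an unadjusted p under 0.05 there was 0 of 10 for A10 against Con and 1 of 10 for STZ-A10 against STZ, against 5.25% and 2.93% of all genes. Of the 10 genes, 8 had a log2 fold change above 0 for A10 against Con (62.5% of all genes), with a median of 0.10 beside 0.05 for all genes. Without Con replicate 1 the count was 3 of 10 (median -0.08), and without Con replicate 3 it was 10 of 10 (median 0.34), so the direction rested on single control libraries. For STZ-A10 against STZ, 9 of 10 lay above 0 (58.7% of all genes), with a median of 0.16 beside 0.03 for all genes. The count was 8 of 10 without STZ-A10 replicate 1 (median 0.09) and 10 of 10 without STZ-A10 replicate 3 (median 0.27) or STZ replicate 1 (median 0.25).

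Gpihbp1 had the largest difference between STZ-A10 and STZ. Its levels in STZ were 26.35, 12.59 and 13.62 RPKM, beside 40.49, 20.81 and 24.90 RPKM in STZ-A10. The groups overlapped through STZ replicate 1. The log2 fold change was 0.70 (SE 0.32, unadjusted p 0.0419, adjusted p 0.996 in limma). It was 0.43 without STZ-A10 replicate 1 and 1.02 without STZ replicate 1. Tek and Stab2 were higher in STZ-A10 than in STZ with no overlap, as were 3.29% of all genes. Stab2 was 12.29, 12.64 and 12.52 RPKM in STZ and 15.25, 13.70 and 12.91 RPKM in STZ-A10, and its log2 fold change of 0.15 had a 95% interval of -0.26 to 0.56. Madcam1 was higher in A10 than in Con in all libraries, as were 11.7% of all genes, with a log2 fold change of 0.50 (95% interval -0.49 to 1.497).

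The interaction of STZ and AOS, which asks whether the STZ difference itself differed with AOS, was past the threshold for 0 of the 10 genes and for 0% of all genes. At an unadjusted p under 0.05 there was 0 of 10, against 2.86% of all genes. The largest interaction among the members was that of Gpihbp1, at 0.47 on the log2 scale (95% interval -0.48 to 1.42).

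The FMT groups were compared with STZ, to which they add the transplant, and with each other. The comparisons with STZ share the STZ libraries, so their values stand side by side and were not correlated. None of the 10 genes passed the adjusted threshold in limma. Over all genes, 0.00775% passed for A10-FMT against STZ, 0.00775% for Con-FMT against STZ and 0% for A10-FMT against Con-FMT. At an unadjusted p under 0.05 there were 3, 1 and 1 of the 10 genes, against 17.2%, 5.24% and 23.6% of all genes. These shares moved with single libraries. Without A10-FMT replicate 3 there were 2 of 10 against 7.85% for A10-FMT against STZ, and 0 of 10 against 3.6% for A10-FMT against Con-FMT. Without A10-FMT replicate 2 there were 7 of 10 against 33.3% and 1 of 10 against 42.9%, and without STZ replicate 1 there were 3 of 10 against 6.73% for A10-FMT against STZ.

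In A10-FMT, 9 of 10 genes were below their level in STZ, with a median log2 fold change of -0.47. The median of all genes in this comparison was itself -0.15, and 72.3% of all genes lay below 0. With each library centred on its median, or after quantile normalization, 8 of 10 lay below 0 and the medians were -0.30 and -0.30 (all genes 0.02 and -0.01). Without A10-FMT replicate 3 it was 8 of 10 and -0.22 (all genes -0.07), and without STZ replicate 1 it was 8 of 10 and -0.30 (all genes -0.09). Con-FMT had 7 of 10 genes below STZ (49.6% of all genes), with a median of -0.19 beside 0.00 for all genes. That median was -0.08 without STZ replicate 1 or without Con-FMT replicate 3 and -0.31 without Con-FMT replicate 1.

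Eng had the smallest p of the members in the FMT groups. Its levels were 42.84, 43.34 and 36.99 RPKM in STZ, 29.10, 30.09 and 25.87 RPKM in A10-FMT and 33.41, 30.12 and 33.22 RPKM in Con-FMT. All FMT libraries lay below all STZ libraries. The log2 fold change was -0.52 for A10-FMT against STZ (SE 0.14, unadjusted p 0.00158, adjusted p 0.153 in limma) and -0.34 for Con-FMT against STZ (SE 0.14, unadjusted p 0.0246, adjusted p 0.918 in limma). Without A10-FMT replicate 3 the difference of A10-FMT from STZ was -0.46 (unadjusted p 0.00761, adjusted p 0.465 in limma). The difference between the FMT groups was -0.18 (95% interval -0.47 to 0.11).

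Cdh5 and Stab2 gave the other members with an unadjusted p under 0.05 for A10-FMT against STZ. Cdh5 was 7.74, 9.77 and 8.56 RPKM in STZ, 5.58, 6.6 and 4.85 RPKM in A10-FMT and 7.37, 5.98 and 5.75 RPKM in Con-FMT. The log2 difference of A10-FMT from STZ was -0.54 (SE 0.22, adjusted p 0.263 in limma) and that of Con-FMT from STZ was -0.40 (95% interval -0.86 to 0.06). Stab2 was 9.92, 9.47 and 7.17 RPKM in A10-FMT and 9.84, 9.81 and 9.96 RPKM in Con-FMT, all below the lowest STZ library at 12.29 RPKM. Its log2 fold change was -0.46 for A10-FMT (SE 0.19, adjusted p 0.269 in limma) and -0.31 for Con-FMT (95% interval -0.72 to 0.10). Without A10-FMT replicate 3, the values of A10-FMT against STZ were -0.45 for Cdh5 (unadjusted p 0.0829 in limma) and -0.33 for Stab2 (unadjusted p 0.124 in limma).

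In all, 5 of the 10 genes were lower in every A10-FMT library than in every STZ library (Cdh5, Kdr, Tek, Eng and Stab2), beside 12.1% of all genes. Leaving out A10-FMT replicate 3 can only add genes to this count. The count stayed at 5 of the 10 genes, beside 17.8% of all genes. For Con-FMT it was 3 lower (Cdh5, Eng and Stab2), beside 6.22% of all genes, and 1 higher (Emcn), beside 6.94%. Kdr was 8.42, 6.97 and 6.29 RPKM in STZ and 5.21, 5.90 and 3.72 RPKM in A10-FMT, and 7.78, 6.48 and 4.82 RPKM in Con-FMT. Tek was 3.40, 3.34 and 3.20 RPKM in STZ and 3.14, 2.46 and 2.50 RPKM in A10-FMT. Emcn was 1.63, 1.41 and 1.15 RPKM in STZ and 2.35, 2.2 and 1.81 RPKM in Con-FMT.

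All 10 genes had a log2 fold change below 0 for A10-FMT against Con-FMT, with a median of -0.27, in a comparison where 71% of all genes lay below 0 and their median was -0.17. With each library centred on its median or after quantile normalization, 7 of 10 lay below 0, and without A10-FMT replicate 3 it was 8 of 10 with a median of -0.07 (all genes -0.09). The median was -0.42 without A10-FMT replicate 2 and -0.16 without Con-FMT replicate 1. Pecam1 and Eng did not overlap between the FMT groups, beside 23.9% of all genes lower in A10-FMT. Without A10-FMT replicate 3, which can only add genes, it was 2 of the 10 genes beside 26.8%. Pecam1 was 36.80, 42.64 and 21.24 RPKM in A10-FMT and 47.93, 45.65 and 46.41 RPKM in Con-FMT. Its log2 fold change was -0.52 (SE 0.24, unadjusted p 0.0475, adjusted p 0.209 in limma) and -0.23 without A10-FMT replicate 3.

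Markers of other cells stood apart in A10-FMT replicate 3 as well. Its lymphocyte markers summed to 521.4 RPKM, beside 1604 and 1800 RPKM in the other A10-FMT libraries, and its stromal and mural markers to 509.1 RPKM, beside 1215 and 1603 RPKM. The erythroid markers summed to 226254 to 385532 RPKM in A10-FMT and to 74520 to 290194 RPKM in STZ. Over the group, 12 of 12 red pulp macrophage markers and 11 of 13 stromal markers lay below 0 for A10-FMT against STZ, with medians of -0.54 and -0.60. All 11 lymphocyte markers lay below 0 (median -0.46). Liver markers summed to 162.0 to 442.1 RPKM in A10-FMT and 56.6 to 69.4 RPKM in STZ and lay above 0 in 10 of 11 (median 2.92), with 9 at an unadjusted p under 0.05 and 0 past the adjusted threshold in limma. Exocrine pancreas markers summed to 148.9, 926.1 and 17665 RPKM in the A10-FMT libraries, beside 1011 to 4393 RPKM in STZ. The macrophage markers, which were also higher beside Eng in STZ mice, summed to 1032.1 to 1095.7 RPKM in STZ, 669.5 to 842.1 RPKM in A10-FMT and 832.2 to 1031.8 RPKM in Con-FMT. The A10-FMT sums lay below those of STZ, and the highest Con-FMT sum nearly met the lowest STZ sum. The part of these cells in the endothelial values was not tested.

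Over all 6 groups, a moderated F test in limma passed the adjusted threshold for 0 of the 10 genes and for 0.449% of all genes. At an unadjusted p under 0.05 there were 3 of 10 (Eng, Cdh5 and Gpihbp1), against 22.6% of all genes. Their adjusted p-values in limma were 0.146, 0.184 and 0.188.

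The 10 genes varied together between libraries of the same group. With each value taken as its difference from the group mean on the log2 scale, 45 of 45 pairs had a positive Pearson r over the 18 libraries, from 0.11 to 0.91 with a median of 0.65. The pairs share the libraries and their scaling, so r is a description. The same was not computed for pairs of other genes, so it is not read as particular to these 10. The closest pair was Pecam1 and Plvap (r = 0.91). Plvap also followed Gpihbp1 (0.86) and Kdr (0.84), and Stab2 followed Cdh5 (0.88), Tek (0.88) and Eng (0.87). Gpihbp1 followed Tek (0.37), Cdh5 (0.39) and Stab2 (0.40) less closely. Kdr, the VEGF receptor whose promoter is printed above, had the highest r with the mean of the other 9 genes (0.93). Madcam1 had the lowest (0.45), and its r with Cdh5 was 0.11, with Tek 0.13 and with Eng 0.15. Without A10-FMT replicate 3, 42 of 45 pairs lay above 0, from -0.16 to 0.90 with a median of 0.61. The r of Kdr with the other genes was then 0.94, that of Madcam1 was 0.15 and that of Pecam1 with Plvap was 0.86.

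**Figure D3:**
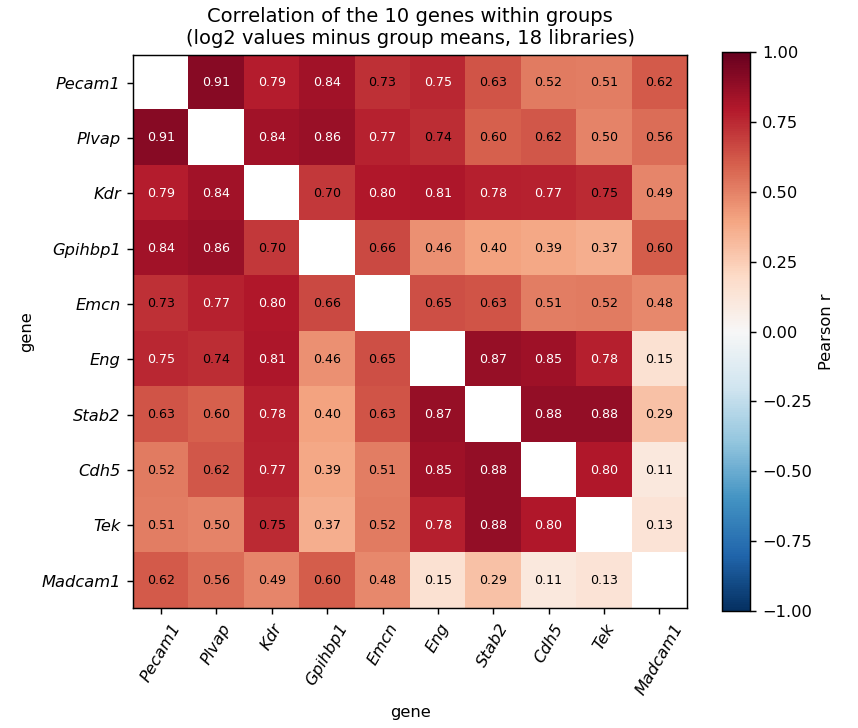
Pearson r between each pair of the 10 endothelial genes (both axes) over 18 libraries, on log2 values from which the group mean was taken, with the colour scale from -1 to 1. All 45 pairs are above 0 (42 without A10-FMT replicate 3), and Madcam1 has the palest row.

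The mean standardised level of the 10 genes was lower in libraries with a higher globin share. Over the 18 libraries Pearson's r was -0.73 and Spearman's rho was -0.73. Without the 2 libraries farthest from the median globin share r was -0.68. On differences from the group means it was -0.65. Without A10-FMT replicate 3, r was -0.67, rho was -0.71 and r on differences from the group means was -0.66. All RPKM of a library are divided by the same number of mapped reads, so globin reads take a share from the other genes. Summed RPKM differed between libraries, so the size of this is not known. No p is given for a score over chosen genes. Of single genes, Pecam1 had the strongest relation to the globin share (r = -0.86) and Madcam1 the weakest (r = -0.44). With the globin genes taken out and the libraries rescaled, 9 of 10 genes lay below 0 for A10-FMT against STZ, with a median of -0.42 beside -0.10 for all genes. The part of the globin share in the endothelial values was not tested.

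**Figure D4:**
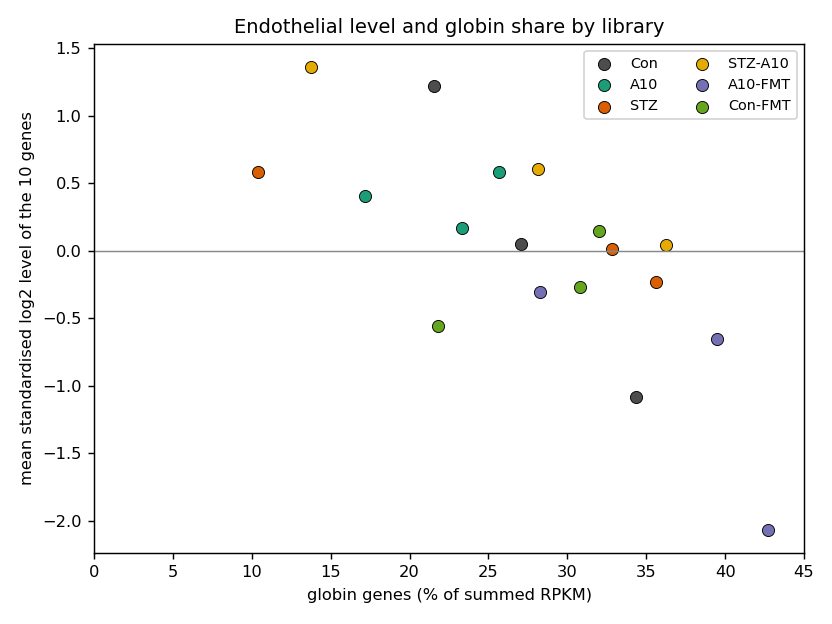
Mean standardised log2 level of the 10 endothelial genes (y axis) against the share of summed RPKM in globin genes (x axis, percent), with 1 point per library coloured by group. A10-FMT replicate 3 lies at the far right and bottom, at 42.7% and -2.07, and STZ-A10 replicate 1 has the highest level (1.36) at a share of 13.7%.

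The genes most like the mean of the 10 were ranked by Pearson r over 12905 genes. Over the 18 libraries the closest non-members were Rtn4rl1 (r = 0.96), Akap2, Zcchc24, Heg1, Tns3, Adcy3, Mpdz, Rbms2, Cul7 and Dock6 (r = 0.94). Within groups they were Akap2 (r = 0.96), Rbms2, Tnfaip1, Tns3, Afap1l2, Csf1, Dlc1, Ldb2, Ecscr and Cul7 (r = 0.94), of which Akap2, Rbms2, Tns3 and Cul7 stood in both rankings. Ecscr, an endothelial surface protein, was the only one of these on the lists of endothelial markers.

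Other genes of the vessel wall were followed in 7 lists, and in the 7 group pairs no gene on these lists passed the adjusted threshold in limma. Over both STZ pairs together, the comparison used for the lists from here on, 3.3% of all genes passed. Of 18 further vessel genes, 1 passed. Podxl, a sialomucin of endothelium and mesothelium, was higher in STZ and STZ-A10 than in Con and A10. It was 4.84 to 14.56 RPKM (median 9.08) beside 2.27 to 3.79 RPKM (median 3.11). The log2 fold change of Podxl was 1.23 (SE 0.32, adjusted p 0.0477 in limma). In the FMT groups, which also carry STZ, Podxl was 8.76, 4.07 and 30.19 RPKM in A10-FMT and 3.77, 3.09 and 6.66 RPKM in Con-FMT. With a library left out, the share of all genes passing ran from 0.947% (without STZ replicate 2) to 7.62% (without A10-FMT replicate 3). The listed genes were not followed through these fits. Among stromal and mural markers in the same comparison, Pdgfra (1.02) and Wt1 (0.86) were higher and Col3a1 (-1.07) was lower past the threshold. Wt1 and Podxl are both known in mesothelium, the covering of the spleen, and the part of that cell type was not tested.

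Of 9 sinusoid and littoral genes, 1 passed. Clec4g, a lectin of liver and lymph node sinusoids, was lower with STZ, at 0.40 to 2.05 RPKM (median 1.06) beside 1.62 to 4.24 RPKM (median 3.24) without it, or -1.02 on the log2 scale (SE 0.22, adjusted p 0.0238 in limma). Liver markers moved with it. Of 11 liver markers, 6 were lower past the threshold in the same comparison. The 11 markers summed to 64.8 to 351.8 RPKM in Con and A10 and 56.6 to 89.1 RPKM in STZ and STZ-A10. They summed to 162.0 to 442.1 RPKM in A10-FMT and 64.5 to 103.6 RPKM in Con-FMT. Gata4, the transcription factor of liver sinusoids, did not pass the filter on low values and was not tested. Its level was at or below 0.18 RPKM in the 12 Con, A10, STZ and STZ-A10 libraries. That is too near the floor to be read for or against liver RNA. The part of liver RNA in the Clec4g difference was not tested.

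Of 8 capillary genes, 1 passed. Fabp4, a fatty acid carrier of capillary endothelium and of fat cells, was lower with STZ, at 7.51 to 41.0 RPKM (median 18.9) beside 20.1 to 125.7 RPKM (median 61.7), or -1.58 on the log2 scale (SE 0.39, adjusted p 0.0405 in limma). Of 8 fat cell markers tested, 5 were lower past the threshold, among them Adipoq. The 10 listed markers summed to 18.9 to 156.8 RPKM in Con and A10 and 8.20 to 50.9 RPKM in STZ and STZ-A10. They summed to 25.9 to 66.1 RPKM in A10-FMT and 13.1 to 101.4 RPKM in Con-FMT. The part of fat cells in the Fabp4 difference was not tested.

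Of 10 genes of inflamed endothelium, 1 was higher and 1 lower past the threshold. Vcam1, an adhesion receptor for leukocytes that red pulp macrophages also carry, had 65.1 to 100.4 RPKM without STZ and 99.9 to 154.6 RPKM with it, or 0.51 on the log2 scale (SE 0.13, adjusted p 0.0429 in limma). Cxcl9, an interferon-induced chemokine, had 8.56 to 20.8 RPKM without STZ and 5.31 to 12.01 RPKM with it, or -0.77 on the log2 scale (SE 0.19, adjusted p 0.0397 in limma). None of 9 arterial genes, 13 endothelial transcription factors and 18 ligands and partners of the 10 genes passed. At an unadjusted p under 0.05 there were 2, 3 and 7 of them, against the 18.2% of all genes in this comparison.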

How the data were processed

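Spleen RNA was enriched with oligo(dT) and read on an Illumina HiSeq. The deposited values are RPKM, made by the authors. The study's methods name SOAPaligner with reference genes, the submitters' processing notes name Bowtie 0.12.2 and mm10, and the annotation is not given in the sources used here. There are no counts, so depth is unknown. Groups come from the sample labels. The study's methods describe the Con, STZ and FMT groups, and A10 and STZ-A10 are known from the labels. The labels do not say that libraries of a group are separate animals, so p-values measure the spread between these samples.

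Of 19326 lines, 6 with repeated names were left out. The 12905 genes kept for testing had an RPKM of at least 1 in at least 3 libraries. They were tested as log2(RPKM + 1) by limma 3.58.1 with an intensity trend (R 4.3.3). All 18 libraries entered 1 model without covariates, which gave 7 group pairs, the STZ effect over both pairs, the interaction and an F test. P-values are two-sided, Benjamini-Hochberg adjusted over all genes, with a threshold of 0.05. Fold changes on this scale understate the change of low genes. The step was tested on simulated data. SE and p are printed for members with an unadjusted p under 0.05 and for listed genes past the adjusted threshold. Other members have levels, intervals or differences, and Itgb7, Itga4 and Gata4 were named after their values were seen. The values without A10-FMT replicate 3 for correlations, globin share, group order and overlap were chosen after seeing the data. The members and lists were chosen with earlier results of these data known. Alternatives were other pseudocounts and filters, quantile normalization, median centring, removal of globin genes, array weights, only the groups compared, a replicate block and each library left out.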

Additional observations from a re-analysis of the deposited data

How the results depend on the processing

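No member passed the threshold in the 10 comparisons as reported, and the count stayed at 0 under all alternatives except those given here, for which the cause was not tested unless stated. With array weights the members passing, beside the share of all genes passing, were 7 for STZ against Con (60.7%), 2 for STZ-A10 against A10 (28.2%), 1 for A10 against Con (37.1%), 2 for STZ-A10 against STZ (27.0%), 7 for A10-FMT against STZ (51.6%), 5 for Con-FMT against STZ (38.8%), 3 for A10-FMT against Con-FMT (66%), 6 for both STZ pairs (58.5%), 2 for the interaction (15.3%) and 10 for the F test (97.8%). The estimation of these weights stopped before it converged. They ran from 0.046 for A10-FMT replicate 3 to 424.3 for A10-FMT replicate 1, and in Con they were 33.5 for replicate 2 and 0.20 for replicates 1 and 3, so that both groups were close to 1 library and nothing is read from these counts. For both STZ pairs together the count was 1 with quantile normalization (5.34% of all genes), median centring (5.11%) and without Con replicate 3 (3.46%), which was Eng each time. It was 1 with only the groups compared (3.45%) and without A10-FMT replicate 3 (7.62%), which was Madcam1 each time, and 0 to 1 over all libraries left out. The median log2 fold change of the members for A10-FMT against STZ ran from -0.58 to -0.22 with a library left out, the latter without A10-FMT replicate 3. Each member difference with an unadjusted p under 0.05 kept its sign under all alternatives. Medians of the members changed sign under some of them. Without Con replicate 1 they were -0.20 for STZ against Con, -0.08 for A10 against Con and -0.05 for both STZ pairs. With an RPKM of at least 1 asked of every library, Emcn was not tested. With the replicate number as a block, 0 members passed in each comparison. The numbers do not pair the libraries: same-numbered libraries had a median r of 0.04 in their deviations from the group means, and 8 of 18 correlated best with their own number. The number of reads behind low values such as those of Emcn is unknown.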
